A study of Homo sapiens with 33 samples.

Results

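TRPM1, the host gene of the microRNA miR-211, was examined for peaks of HA-tagged MITF across 33 CUT&Tag peak lists from the human melanoma cell line UACC-257. A peak belonged to TRPM1 when its summit lay within the RefSeq span of the gene, chr15:31001065-31161160 on hg38, or within 10000 bp of it. By this rule 1004 of the 6079318 peaks in the lists were members. The lists fall into 11 groups of 3 libraries: MITF labelled WT, 9 MITF variants labelled K243A, G244E, Y253A, E260A, Q261A, A264C, N278D, rep217A and rep263A, and a control labelled Empty. All cells, Empty included, carried a knockdown of MITF and received doxycycline, and the antibody was directed against the HA tag. Which construct doxycycline controlled, and whether the replicates were separate cultures, is not given in the labels. Replicates 2 and 3 of rep217A held the same list, as did those of rep263A, and each pair was counted once. This left 31 distinct libraries, of which 28 were of HA-MITF and 3 of Empty. The gene was chosen by its −log10 q ranks in these same lists, so its levels are described here without a test.

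MITF is a basic helix-loop-helix leucine zipper transcription factor that directs the melanocyte lineage and binds E-boxes, short palindrome-like sequences such as CACGTG and CATGTG. TRPM1 encodes a cation channel of the melastatin family, known in melanocytes as a MITF target and in the retina for signalling in ON bipolar cells. Within an intron of TRPM1 lies MIR211, whose mature product is made from the host transcript and is abundant in pigmented melanocytes.

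The main product of MIR211 and its closest relative are shown because the host gene is known in melanocytes mainly through this microRNA. The hairpin of MIR211 maps to chr15:31065032-31065141 on the minus strand, 96.1 kb inside TRPM1. MIR204, which lies within the span of another member of the channel family, TRPM3, gives a mature sequence with the same seed. Bases 2 to 8, the seed, are in capitals, 5′ to 3′, as listed by RefSeq.
miR-211-5p: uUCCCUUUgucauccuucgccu
miR-204-5p: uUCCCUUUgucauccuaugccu
miR-211-3p: gCAGGGACagcaaaggggugc
The 5p sequences of both were identical at 20 of 22 positions, and no other mature name in the RefSeq table carried their seed.

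The promoters of the 2 TRPM1 starts in the RefSeq promoter table (GRCh38.p14) are shown because strong MITF peaks lay at one of them and not at the other. Each runs from 250 bases before to 50 bases after the start on the minus strand. The internal start lies at position 31101725, 59.4 kb inside the gene, and the other is the annotated 5′ end at 31161160. Capitals mark CACATG, which reads CATGTG on the other strand.
Internal start, chr15:31101676-31101975: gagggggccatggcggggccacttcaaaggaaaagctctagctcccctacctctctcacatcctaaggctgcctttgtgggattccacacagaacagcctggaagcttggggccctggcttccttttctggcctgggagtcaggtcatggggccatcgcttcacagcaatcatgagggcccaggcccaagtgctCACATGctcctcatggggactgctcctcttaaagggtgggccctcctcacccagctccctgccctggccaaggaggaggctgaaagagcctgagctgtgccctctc
Annotated 5′ end, chr15:31161111-31161410: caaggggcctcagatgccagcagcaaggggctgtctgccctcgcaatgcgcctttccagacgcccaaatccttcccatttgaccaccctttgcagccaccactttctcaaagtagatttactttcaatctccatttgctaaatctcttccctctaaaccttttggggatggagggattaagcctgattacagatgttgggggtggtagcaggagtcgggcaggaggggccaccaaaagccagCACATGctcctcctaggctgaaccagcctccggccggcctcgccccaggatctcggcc
The E-box was centred 53 bp upstream of the internal start and 5 bp upstream of the annotated 5′ end. Searched on both strands, CATGTG was present in 11.1% and CACGTG in 7.24% of 34789 RefSeq promoters of this length, and neither TRPM1 promoter held CACGTG. The internal start also matched the longer word CATGTGA, which overlaps CATGTG and reads TCACATG on the other strand. The T before CACATG there is part of known MITF motifs. CATGTGA was present in 3.35% of promoters, and the promoter of the annotated 5′ end did not hold it. A match of letters describes the sequence and is not a bound site.

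Libraries differed in depth, and this touches every comparison that follows. Lists held from 81488 to 300000 peaks. The number of tags at each summit, its pileup, was recovered from the deposited fold and p, and the commonest local background of a library gave its relative depth. That background was 1.08 to 1.20 in WT, 0.108 to 0.151 in G244E, 0.132 to 0.244 in K243A, 0.276 to 0.348 in rep217A, 0.427 to 0.487 in rep263A and 0.03 in Empty. A weak site that is missing from a shallow list was not detectable at that depth and need not be absent. Levels are therefore given on 2 scales: the rank by −log10 q, the authors' own peak value (1 is the highest), and the relative pileup, which is the pileup over the median pileup of shared sites in the same library. Shared sites are the 25068 summit clusters of the genome that all 28 HA-MITF libraries listed. The variants are compared with the same 3 WT libraries, so their differences from WT are not independent of each other.

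The TRPM1 peaks formed 17 recurrent sites, meaning clusters of summits listed by every library of at least 1 HA-MITF group. All 17 were listed by all 3 WT libraries, and 13 lay inside the gene. The recurrent sites held 463 of the 949 member peaks of the distinct libraries. Of the 486 others, 1 was among the 10000 strongest peaks of its library, and that library was Empty 3. HA-MITF at TRPM1 was thus listed at 4 shared sites, and strong at a few places with weak ones between them. These lay at the promoter edge of the neighbouring gene MTMR10, 80.5 kb inside TRPM1, and 1056 bp upstream of the internal start. The last of the 4 lay 3.2 kb inside the annotated 5′ end and had the best mean rank in WT.

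**Figure D1:**
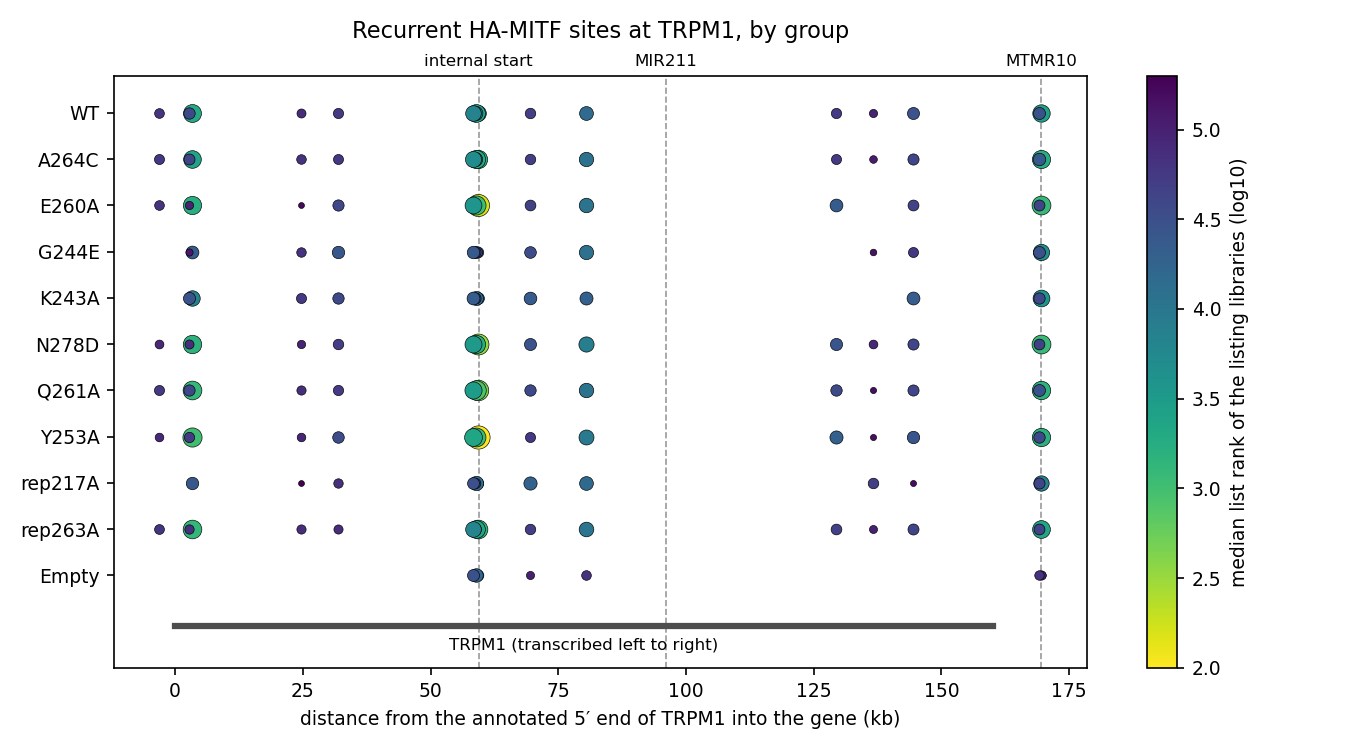
Recurrent HA-MITF sites at TRPM1. The x axis is the distance in kb from the annotated 5′ end into the gene, each row is a group, and a point shows a site listed by at least 1 library of that group; larger and lighter points have a better median list rank (log10 colour scale). The sites at 3.2 kb and near the internal start at 59.4 kb stand out in WT and are weaker in G244E, K243A and rep217A, and no site built from the 50000 strongest peaks lies at MIR211 or at the annotated 5′ end.

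The site 3.2 kb inside the annotated 5′ end was centred at position 31157919. Nothing but the TRPM1 span overlaps it in the RefSeq gene table, which gives no exons or introns. All 28 HA-MITF libraries listed this site and none of the 3 Empty libraries did. Its pileup in the WT libraries was 286, 274 and 304 tags, its rank among shared sites 2089, 1945 and 1700, and its relative pileup 3.12 ± 0.145 (SD, n = 3). WT replicates therefore placed it close together.

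In G244E the pileup at this site was 7, 5 and 9 tags, and the relative pileup 0.539, 0.500 and 0.643. These libraries placed it at ranks 16118, 18717 and 16358 among the shared sites. In rep217A the relative pileup was 0.722 and 0.700, with 13 and 14 tags, at ranks 15401 and 17366. In both variants the site thus went from about 3 times the median shared site in WT to below the median one, with no overlap with WT on either scale.

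K243A lay between. Its relative pileup was 1.31, 1.80 and 1.62 and its ranks 9893, 5116 and 6314, on 17, 27 and 34 tags. K243A did not overlap WT, G244E or rep217A on either scale.

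Set against WT, the log2 ratio of geometric mean ranks was 3.16 in G244E, 3.10 in rep217A and 1.84 in K243A, where a positive value means placed lower in the variant. On the relative pileup, the log2 difference from WT was −2.48 in G244E, −2.13 in rep217A and −0.997 in K243A. Such a placement was itself common. Every library lay lower than every WT library at 20.7% of all shared sites in G244E, 28.9% in rep217A and 16.5% in K243A. Among shared sites with a WT rank up to 5000, where this TRPM1 site belongs, the shares were 46.1%, 57.0% and 33.3%. A rank ratio at least as high was found at 4.95% of the shared sites with a WT rank up to 5000 in G244E, 7.01% in rep217A and 8.04% in K243A. A relative pileup difference at least as low was found at 1.66%, 3.88% and 6.68% of the same sites. Sites placed lower in WT have less room to fall, so these shares were taken within that band only. Shared sites are by definition listed in every HA-MITF library. Sites that dropped out of a G244E, rep217A or K243A list are thus not counted in any share of shared sites. These 3 variants also had the shallowest HA-MITF libraries, and the part of depth in the difference was not tested beyond the scaling to the median pileup. Ranked by fold enrichment instead, the log2 ratio was 1.26 in G244E and 1.18 in rep217A, and K243A was placed slightly higher than WT at −0.14.

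The other 6 variants kept the site near its WT level. Relative pileup was 2.90 ± 0.230 in A264C, 2.93 ± 0.0272 in E260A, 2.93 ± 0.358 in N278D, 3.65 ± 0.148 in Q261A and 3.58 ± 0.345 in Y253A (SD, n = 3 each), and 3.34 ± 0.265 in rep263A (SD, n = 2). Q261A alone of the 6 lay above every WT library on both scales, with a log2 rank ratio of −0.79 and a log2 pileup difference of 0.23.

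By rank, E260A at −0.41, Y253A at −0.87 and rep263A at −0.63 were also placed higher than every WT library. Background shares for that placement were 23.3% in E260A, 15.8% in Q261A, 21.4% in Y253A and 22.8% in rep263A, and among shared sites with a WT rank up to 5000 they were 18.9%, 14.3%, 19.7% and 21.8%. The placement of TRPM1 was thus a common one. A264C at 0.16 and N278D at −0.33 overlapped WT. By relative pileup, E260A lay just below WT, while Y253A and rep263A overlapped it. In the order of mean rank (Y253A, Q261A, rep263A, E260A, N278D, WT, A264C, K243A, rep217A, G244E), neighbours overlapped except A264C with K243A and K243A with rep217A.

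**Figure D2:**
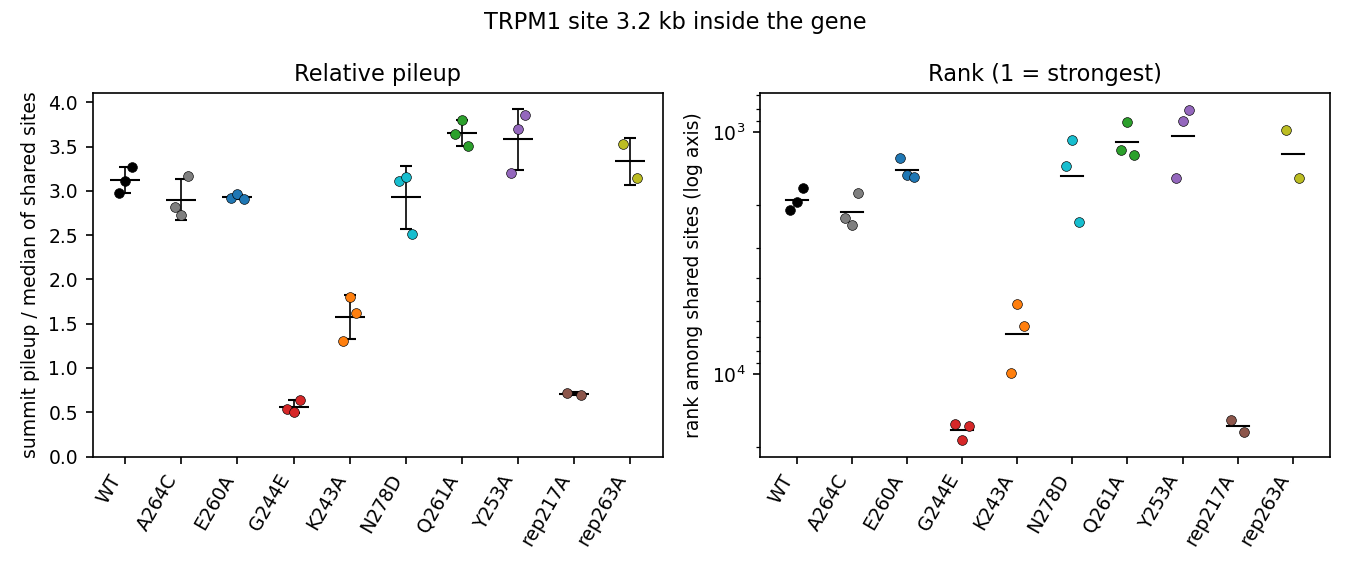
The TRPM1 site 3.2 kb inside the annotated 5′ end. Left, relative pileup (summit pileup over the median of shared sites) in each library, with mean and SD; right, rank among shared sites on a log axis with 1 at the top, with the geometric mean as a bar. G244E and rep217A lie below 1 and K243A between 1.31 and 1.80, under all WT libraries at 2.98 to 3.27.

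Around the internal start, 4 neighbouring summit clusters lay within 1484 bp, chr15:31101577-31103060, and are also given as 1 region, a choice made after their values were seen. In WT, 1 peak of 1621 to 1669 bp covered all of them. The clusters were centred 119, 446, 740 and 1056 bp upstream of the start. On the relative pileup, HA-MITF was higher here in 6 variants than in WT and lower in 3. The upward differences were larger on that scale than any at the site near the 5′ end. The deposited fold of the strongest summit differed less, at 8.353, 8.917 and 8.371 in WT and 9.4, 10.04 and 10.15 in Y253A. By fold, N278D at 8.875, 9.426 and 8.794 and A264C at 8.7, 8.458 and 9.095 overlapped WT. E260A, Q261A and rep263A still lay above every WT library by fold, and the 3 lower variants below. Those 3 had 9 to 49 tags at their strongest summit. Fold adds 1 to the tags and to the background, which lowers it where both are small. Their lower fold therefore cannot be told apart from their lower depth.

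The strongest summit of the region had 380, 399 and 427 tags in WT, with a relative pileup of 3.96, 4.53 and 4.59. In Y253A it had 921, 884 and 849 tags and a relative pileup of 9.03, 9.31 and 10.1. It then ranked 96, 76 and 49 in its whole lists, against 2962, 2009 and 2115 in WT. By −log10 q, the region was thus among the 100 strongest peaks of the genome in every Y253A library. By fold it was not the strongest even at TRPM1. The site 3.2 kb inside the 5′ end had a fold of 15.03, 16.96 and 17.37 in Y253A, against 9.4, 10.04 and 10.15 here.

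E260A followed, with relative pileup of 7.58, 8.03 and 7.68 and list ranks of 166, 143 and 198. Q261A had 7.20, 7.48 and 8.68 at list ranks 466, 285 and 119. N278D had 6.35, 6.92 and 6.74 at list ranks 597, 325 and 341. All 9 libraries of these variants lay above the highest WT library at 4.59.

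Smaller differences were seen in A264C, with 5.25, 4.96 and 5.48, and in rep263A, with 5.07 and 5.26. They too lay above every WT library. Below WT were rep217A at 1.61 and 2.45, K243A at 1.39, 1.60 and 1.95, and G244E at 0.923, 0.900 and 1.00. No library of these 3 variants reached the lowest WT value of 3.96. In Empty, 2 of 3 libraries had a summit in the region, of 3 and 2 tags.

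**Figure D3:**
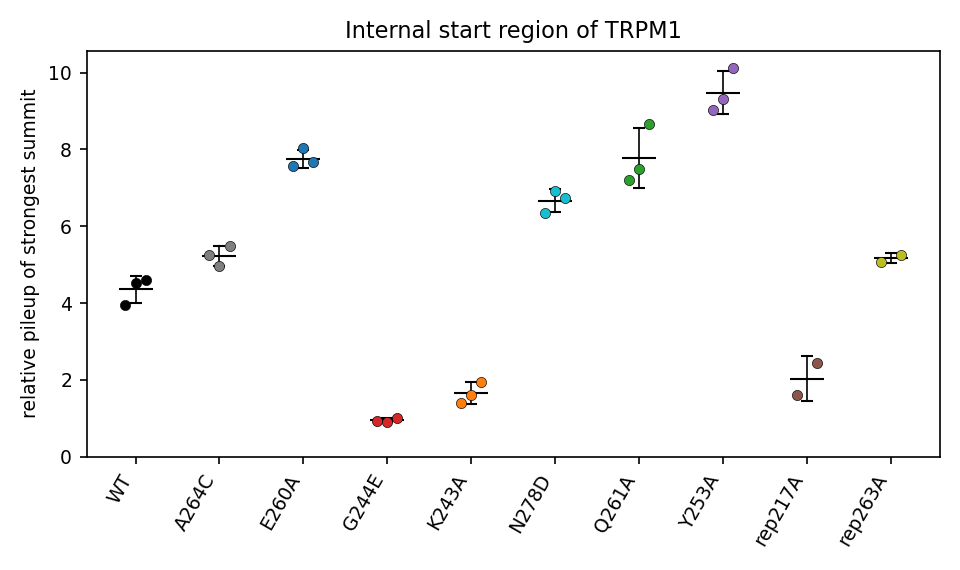
Relative pileup of the strongest summit in the internal start region of TRPM1, per library, with mean and SD for each group. Y253A lies highest at 9.03 to 10.1, WT at 3.96 to 4.59, and G244E lowest at 0.900 to 1.00.

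As log2 differences of relative pileup from WT, the region stood at 1.12 in Y253A, 0.83 in E260A, 0.83 in Q261A and 0.61 in N278D. It stood at 0.26 in A264C and 0.25 in rep263A, and at −1.13 in rep217A, −1.42 in K243A and −2.21 in G244E. Of all shared sites, 1.74% had a pileup difference at least as high in Y253A, 2.41% in Q261A, 5.57% in E260A, 9.38% in A264C, 10.3% in N278D and 25.0% in rep263A. At least as low a difference was found at 0.906% of shared sites in G244E, 1.08% in K243A and 9.29% in rep217A. Among shared sites with a WT rank up to 5000, the shares at least as high were 0.182% in Y253A, 0.363% in Q261A, 0.626% in E260A, 1.66% in A264C, 2.46% in N278D and 13.6% in rep263A. In the same band the shares at least as low were 3.05% in G244E, 1.82% in K243A and 18.9% in rep217A. The differences in rep263A and rep217A were thus the most common ones. These shares set the strongest of 4 joined clusters against single sites. A placement above every WT library by rank was found at 8.02% of shared sites in A264C and 22.7% in N278D.

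Ranks spread more widely than pileups at the top of a list. The region was inserted into the ranking of shared sites, and the log2 rank ratio to WT was −4.99 in Y253A, −3.77 in E260A, −3.20 in Q261A and −2.54 in N278D. The cluster 1056 bp upstream, the only shared one of the 4, gave −1.69, −0.90, −1.30 and −1.06 for the same variants on its own. In G244E, K243A and rep217A the region gave 2.95, 2.33 and 1.99 and that cluster 1.63, 1.45 and 1.61. The cluster overlapped WT in A264C and rep263A, at −0.31 and −0.11. By fold, the cluster overlapped WT in Y253A, E260A, Q261A and N278D as well. Its fold was 6.522, 5.577 and 6.559 in WT and 6.099, 6.105 and 5.853 in Y253A.

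The position of the highest summit within the region differed between groups. It lay 421 to 426 bp upstream of the internal start in all 3 WT libraries and 412 to 418 bp upstream in both of rep217A. In E260A it lay 205 to 220 bp upstream, in N278D 202 to 208 bp, in Y253A from 207 bp and in rep263A 188 to 196 bp, in every library of each. A264C and Q261A were mixed, with the nearer summit highest in 2 of 3 libraries. The strongest summit thus lay nearer to the start in those 4 variants than in WT.

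The cluster nearest the start differed in the same directions as the region. Its list ranks were 6500, 7001 and 6240 in WT, 96, 76 and 49 in Y253A and 166, 143 and 198 in E260A. In rep217A its list ranks were 71624 and 32768. In G244E they were 25298 and 75750, with 1 library not listing it.

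The summits of this cluster lay 18 to 184 bp from the E-box at the internal start, with a median of 140 bp over 29 libraries. In Y253A, the distance was 154 to 158 bp. Summits were thus near the E-box but not on it, on its upstream side in all HA-MITF libraries that listed the cluster except K243A 3 and rep217A 1.

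**Figure D4:**
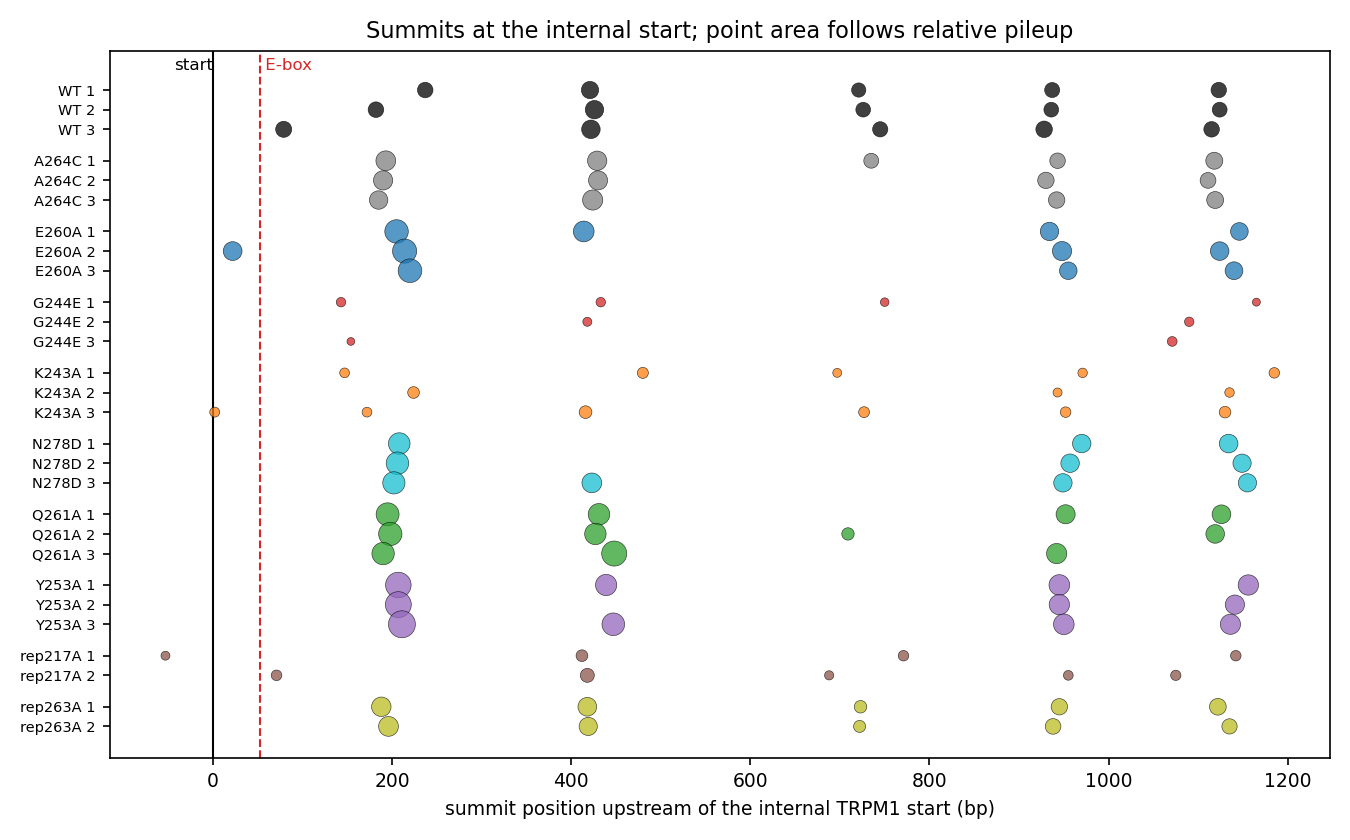
Summits in the internal start region of TRPM1, 1 row per HA-MITF library. The x axis is the distance in bp upstream of the start (solid line), the dashed line is the E-box 53 bp upstream, and the area of a point follows the relative pileup. The strongest summit lies 202 to 220 bp upstream in E260A, N278D and Y253A, and 421 to 426 bp upstream in WT.

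The shared site 80.5 kb inside the gene, centred at 31080686, was the nearest recurrent site to MIR211, at 15.6 kb from it on the side of the 5′ end. Relative pileup was 0.993 ± 0.118 in WT, 1.02 ± 0.112 in G244E and 0.808 ± 0.460 in K243A (SD, n = 3 each), and 1.06 ± 0.153 in rep217A (SD, n = 2). The 3 variants that were lower both near the 5′ end and at the internal start overlapped WT here. The log2 rank ratios of G244E, K243A and rep217A were −0.28, 0.10 and −0.12. With a mean rank of 11983 among 25068 shared sites in WT, this site had less room to fall by rank than those sites. It rested on 10 to 16 tags in G244E, 8 to 20 in K243A and 19 to 21 in rep217A. Relative pileup was higher than WT in E260A at 1.77 ± 0.254, in Y253A at 1.63 ± 0.106 and in N278D at 1.48 ± 0.163 (SD, n = 3 each), all of whose libraries were placed above WT by rank. A264C, Q261A and rep263A were placed above WT here as well, at log2 rank ratios of −0.35, −0.42 and −0.46. By the deposited fold, E260A at 9.671, 11.66 and 9.268 lay below every WT library at 13.15, 12.59 and 13.55. N278D at 15.98, 17.98 and 16.46 lay above WT by fold. Y253A at 12.75, 12.07 and 12.83 overlapped WT, as did A264C, Q261A and rep263A.

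The shared site at 30991691 lay just upstream of the start of MTMR10, chr15:30918716-30991628, a gene on the same strand, within the 10000 bp window and outside TRPM1. MTMR10 encodes a myotubularin-related protein. This site was among the 10000 strongest peaks in all 28 HA-MITF libraries. Relative pileup was 2.55 ± 0.125 in WT, 2.35 ± 0.232 in K243A and 1.71 ± 0.433 in G244E (SD, n = 3 each), and 1.72 ± 0.165 in rep217A (SD, n = 2). G244E and rep217A were thus below WT here too, with log2 pileup differences of −0.61 and −0.57, smaller in size than near the 5′ end or at the internal start. Weaker clusters flanked it on both sides.

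Over the 4 shared sites, by rank, G244E and rep217A each placed 3 lower than WT, K243A 2, and none higher. The share of all shared sites placed lower was 20.7% in G244E, 28.9% in rep217A and 16.5% in K243A. Q261A and Y253A each placed 4 higher, E260A and N278D 3, A264C and rep263A 2, and none lower. The share of all shared sites placed higher was 15.8% in Q261A, 21.4% in Y253A, 23.3% in E260A, 22.7% in N278D, 8.02% in A264C and 22.8% in rep263A. With 4 sites of 1 gene, these counts are a description only.

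The remaining sites were weaker. A site at 31031872, which overlaps both TRPM1 and the antisense gene TRPM1-AS1 at chr15:31026188-31037418, was listed by every library of 7 groups and by none of G244E, K243A and rep217A. Its list ranks were 11652 to 19770 in Y253A and 20151 to 23300 in E260A, against 51026 to 66778 in WT. A site 3.2 kb upstream of the 5′ end was likewise listed by no library of G244E, K243A and rep217A, and elsewhere ranked no better than 45474.

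Of the 17 TRPM1 sites listed by all WT libraries, 3 were listed by no library of K243A, 3 by none of rep217A and 2 by none of G244E. At the same criterion 9.69% of sites were missing in K243A, 18.9% in rep217A and 15.4% in G244E. E260A lacked 2 sites (2.26% of all sites), and N278D and Y253A lacked 1 each (1.28% and 1.33%). A264C, Q261A and rep263A lacked none, with 0.415%, 1.28% and 4.22% of all sites missing. In E260A, N278D and Y253A the missing sites included the cluster 740 bp upstream of the internal start, which lies between the stronger summits there. In each of their libraries 1 peak spanned that cluster without a summit of its own in it. The cluster was thus not listed although a peak covered it. Empty lacked 9, with 47.3% of all sites missing at its depth. No TRPM1 site was listed by every library of a variant and by no WT library, and few sites elsewhere were. Their shares were 0.86% in A264C, 2.87% in E260A, 0.747% in G244E, 0.336% in K243A, 2.29% in N278D, 1.43% in Q261A, 2.47% in Y253A, 3.81% in rep217A and 1.35% in rep263A.

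At MIR211 itself the lists held weak peaks. Within 5 kb of the hairpin, 23 libraries had 62 peaks, none ranked better than 75902. In 16 of the libraries, including all 3 of WT, a summit lay 2825 to 3158 bp from the hairpin centre towards the 5′ end of TRPM1. It ranked below the 50000 peaks that built the sites. Built from the 100000 strongest peaks, it formed a recurrent site, listed by 16 libraries. Within 1 kb there was a summit in 2 libraries, G244E 2 and rep217A 2, both with −log10 q of at most 1.26. Around the annotated 5′ end of TRPM1, 9 libraries had a peak within 1 kb, of N278D, Q261A, Y253A and G244E, and the best ranked 72322. None of the WT libraries had one there, although that promoter holds CATGTG. Built from the 100000 strongest peaks, these also formed a recurrent site, listed by 9 libraries.

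TRPM1 was set beside 15 other pigmentation genes, a list chosen with earlier results of these data known. A leading site shared by all HA-MITF libraries was found for 15 of the 16, all except SLC24A5, which encodes a cation exchanger of the melanosome. For 8 of these genes the site lay inside the gene span, and for 7, among them PMEL, MC1R and TYR, in the 10000 bp beside it, where it may belong to another gene. In G244E 8 of the 15 were placed lower than WT and 2 higher, and the median log2 rank ratio was 1.30 against −0.10 over all shared sites. Of all shared sites, 20.7% were placed lower and 22.9% higher in G244E, and 46.1% lower among those with a WT rank up to 5000, where most of these genes stood. TYRP1, MYO5A, RAB27A and MC1R, at WT ranks of 17566, 7093, 15245 and 8086, lay outside that band. None of them was placed lower in G244E, K243A or rep217A. The 8 of 15 and the 46.1% thus cover unlike sets of sites. TRPM1 at 3.16 had the fourth highest value in G244E, below RAB38 at 4.19, DCT at 3.76 and GPNMB at 3.40. RAB38 is a small GTPase of melanosome trafficking, DCT an enzyme of melanin synthesis and GPNMB a melanosomal glycoprotein. In K243A 8 were lower and 2 higher, with a median of 1.05 and background shares of 16.5% lower, 17.4% higher and, for a WT rank up to 5000, 33.3% lower.

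In rep217A the list divided: 6 were lower and 7 higher, with a median of −0.25 against −0.04 over all shared sites. All shared sites divided as well, with 28.9% lower and 31.4% higher, and 57.0% lower for a WT rank up to 5000. TRPM1 at 3.10 had the highest value of the 15, followed by OCA2 at 2.97 and DCT at 2.71. OCA2 encodes a melanosomal transporter. MC1R, the melanocortin receptor, stood at −2.66 in the same libraries, TYR, the rate-limiting enzyme of melanin synthesis, at −1.56, and PMEL, the fibril protein of the melanosome, at −1.05. MLPH, a melanosome transport protein, differed between the variants, with 2.95 in G244E and −1.17 in rep217A.

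E260A placed 9 of the 15 lower and 5 higher, with TRPM1 among the higher at −0.41 and PMEL at 2.54. Counts lower and higher were 4 and 5 in N278D, 3 and 5 in Q261A, 3 and 6 in Y253A, 2 and 4 in rep263A, and 0 and 2 in A264C. Shares of all shared sites placed lower were 23.3% in E260A, 22.8% in N278D, 15.6% in Q261A, 22.3% in Y253A, 21.6% in rep263A and 7.36% in A264C. Shares placed higher were 23.3%, 22.7%, 15.8%, 21.4%, 22.8% and 8.02% in the same order. In Y253A, TRPM1 at −0.87 was higher than WT while GPNMB stood at 2.26 and PMEL at 2.18.

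**Figure D5:**
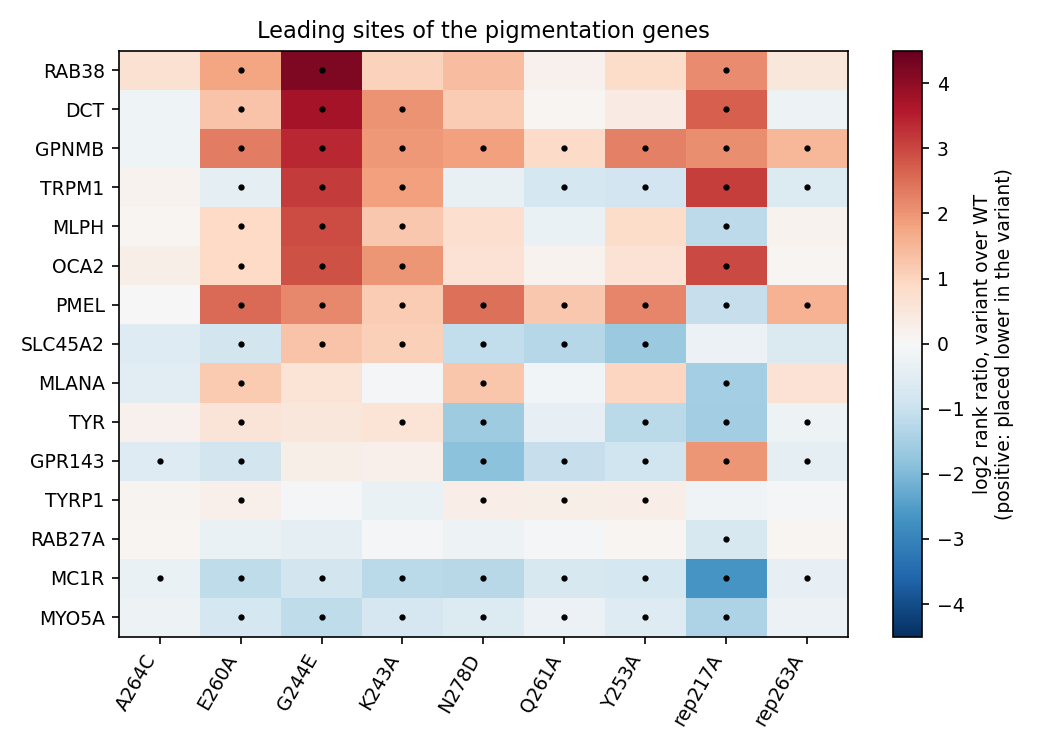
Log2 rank ratio of each variant over WT at the leading site of 15 pigmentation genes, ordered by the G244E value. Red is placed lower than WT, blue higher, and a dot marks groups whose ranks do not overlap; TRPM1 is red in G244E (3.16), rep217A (3.10) and K243A (1.84) and pale or blue in the other 6 variants.

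Among the 8 TRPM channel genes, 7 had a shared leading site, all except TRPM6. TRPM1 had the highest rank ratio of the 7 in G244E and in K243A and the second highest in rep217A, below TRPM2 at 3.48. TRPM3, the gene whose span holds MIR204, had its leading site at 70601522 on chromosome 9, inside the gene. It was placed higher than WT in G244E at −2.86 and in rep217A at −1.01, where TRPM1 was lower, and lower in E260A at 2.76. In K243A it overlapped WT, at −1.24. Over 63 pairs of gene and variant, 27 were lower and 12 higher than WT. Over all shared sites, 7.36% to 28.9% were lower and 8.02% to 31.4% higher, depending on the variant. Among those with a WT rank up to 5000, 46.1% were lower in G244E, 57.0% in rep217A and 33.3% in K243A. The leading sites of TRPM1, TRPM2, TRPM3, TRPM7 and TRPM8 stood in that band.

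Sites elsewhere in the genome were ordered by how closely their log2 rank followed the TRPM1 site 3.2 kb inside the 5′ end over the 28 HA-MITF libraries. The 10 with the highest Pearson r, from 0.943 to 0.965 of 25064 sites compared, were nearest to or inside HAAO, RTTN, CRISPLD1, MED13L, TLE3, HTR2A, C2orf69, ZZZ3, TMEM268 and PCDH9. The median r was −0.164 and its 99th percentile 0.882. The points share libraries and therefore depth, so this is a description of pattern only. For the site at HAAO the mean rank was 1599 in WT, 21654 in G244E, 20796 in rep217A and 6652 in K243A. Within TRPM1 the cluster 1056 bp upstream of the internal start had an r of 0.896 and the site 80.5 kb inside the gene 0.436.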

How the data were processed

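Each library was deposited by the authors as a list of peaks with hg38 coordinates, a summit position, a fold enrichment (a ratio over local background), both −log10 p and −log10 q values, and a score that was not used. MACS2 (no version stated), Bowtie2 version 2.3.4.3 and bcl2fastq version 2.20.0.422 are listed in the submitters' processing notes. Peaks were called per library, per the labels. Peaks on chromosomes 1 to 22 and X were ranked by −log10 q. The 50000 highest of each HA-MITF library built sites by joining summits at most 150 bp apart, and a library listed a site when a summit of its complete list lay within 150 bp of it. Shared sites were ranked over the same sites in each library, and groups were called lower or higher when their ranks did not overlap. Empty libraries without a site took the mean of the ranks left over. Pileup was recovered from the fold and p-value that the authors deposited, and came out whole, within 0.05, at 100% of the peaks of each library whose −log10 p was under 12. Both steps were tested on simulated data. The simulated libraries were alike in depth, so that test does not cover ranks compared between libraries of unequal depth. No total read count was used, so depth is relative. Gene spans, promoters and microRNAs came from RefSeq (GRCh38.p14). Genome sequence at the other summits was not used here. The leading site and up to 5 other TRPM1 sites among the 10000 strongest peaks of a library, the genes of both lists, the neighbouring genes and the 10 most alike sites were named by rule. Members, rule and lists were chosen with earlier results of these data known. Python 3.11.15, NumPy 2.4.6, pandas 2.3.3 and SciPy 1.17.1 were used.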

Additional observations from a re-analysis of the deposited data

How the results depend on the processing

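No paired analysis was possible because the results come from no test. Built from the 100000 strongest peaks, the recurrent TRPM1 sites numbered 29 in place of 17. Ranked by fold enrichment, the log2 rank ratio to WT at the TRPM1 site 3.2 kb inside the 5′ end was −0.67 in E260A, 1.26 in G244E, −0.14 in K243A (reversed), −0.24 in Q261A, 0.10 in Y253A (reversed), 1.18 in rep217A, −1.27 in rep263A and 1.54 in Empty. As log2 relative pileup of WT minus the variant, it was 0.090 in E260A (reversed), 2.48 in G244E, 0.997 in K243A, −0.23 in Q261A, −0.20 in Y253A, 2.13 in rep217A and −0.10 in rep263A, with no value for Empty. The cause of these differences was not tested. Leaving out each replicate in turn gave 3.11 to 3.27 in G244E, 3.02 to 3.26 in rep217A, 1.64 to 2.07 in K243A and 3.28 to 3.38 in Empty. Below 0 the ranges were −0.54 to −0.26 in E260A, −0.96 to −0.64 in Q261A, −1.10 to −0.75 in Y253A, −0.95 to −0.23 in rep263A and −0.73 to −0.07 in N278D, and A264C gave 0.09 to 0.21. Without replicate 3, N278D no longer overlapped WT and was placed higher, and A264C was placed lower. Pairs of pigmentation gene and variant placed lower numbered 43, against 25 by fold and 52 to 55 with a replicate left out. Pairs placed higher were 38, against 41 to 48. For the TRPM family 27 pairs were lower, against 28 to 31, and 12 higher, against 16 to 19, the highest being 19 without replicate 1. With fewer libraries, ranks overlap less by construction. Only 5870 sites were shared once Empty was included, and the TRPM1 site was not among them, so that setting gave no value. Recurrent sites numbered 19 and 12 with summits joined within 75 and 300 bp, 13 from the 25000 strongest peaks, 13 within the gene alone and 16 when listed by at least 16 libraries. Joined within 75 bp, 3 and not 4 of them were shared. Within gene spans alone, pigmentation pairs were 37 lower and 31 higher. The log2 ratios at the TRPM1 site moved by less than the replicate SD under the other join distances and site numbers. Depth limits G244E, K243A, rep217A and Empty, where the TRPM1 site near the 5′ end rests on 34 tags or fewer.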
